A study of Homo sapiens with 10 samples.

Results

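OVCAR-3 is an established human ovarian adenocarcinoma cell line. The comparison set OVCAR-3 cells that had survived 24 hours of 0.5 uM cisplatin and then grown for 2 weeks of recovery (Treated, 2 libraries) against cells kept in standard culture (Control, 2 libraries). These are 4 of the 10 libraries of a series on cells immobilized in silica gel. The other 6 were 2 libraries after 24 hours in the gel (Day1), 2 after 3 days (Day3) and 2 from cells that had survived 3 days of gel and then recovered for 2 weeks (Extracted). All groups grew in RPMI with fetal bovine serum, and the design text gives 2 biological replicates per condition without saying whether they came from separate cultures or days, so p-values measure the spread between these libraries. Genes entered the comparison when they reached 1 TPM, a length-scaled share of the library, in 2 or more of the 10 libraries, which 15167 of 58222 genes did. A gene near 0 in Control could pass through its Treated values and then had little room to fall. As a model the survivors are limited to 1 cell line. The labels do not say what share of cells survived, nor whether Control was carried for the same 2 weeks, so time in culture and cisplatin exposure cannot be told apart.

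Cisplatin is a platinum drug that enters cells in part through copper transporters and binds DNA, above all at neighbouring guanines. Its adducts within a strand are removed by nucleotide excision repair, and its crosslinks between strands by the Fanconi anaemia proteins and homologous recombination. Stalled replication forks signal through ATR and CHK1 to the cell cycle, and damage also induces arrest and death genes. OVCAR-3 carries amplified CCNE1 and AKT2, and is used as a model of high-grade serous carcinoma.

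Differences are given as Treated minus Control on log2(TPM + 1), which understates the ratio for genes at low TPM, and adjusted p-values come from limma with Benjamini-Hochberg adjustment over all 15167 genes. Small-RNA genes held 14.7% of the TPM of Treated replicate 2 and 0.391% of Treated replicate 1, which leaves less of the total for other genes in replicate 2. The median difference of all genes was -0.147 on the deposited TPM, so that every difference on TPM is read against a shift of about that size. It was -0.003 after median-of-ratios rescaling, which sets it near 0 by construction. With small-RNA genes removed it was -0.052, and with nuclear protein-coding genes alone -0.128. The source of the shift was not tested. A gene is said to rise or fall below only when its adjusted p was under 0.05 in the same direction on both scales. The depth of the libraries is unknown. With 2 libraries a group, 1 library can decide a call, so each fit was repeated without each Control and Treated library, on both scales, and a call in all 8 repeats is named as such.

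On the deposited TPM, 3715 genes were called in the cisplatin survivors (24.5%), 953 of them higher (6.28%) and 2762 lower (18.2%). The calls were 25.7% higher ones on TPM and 51.7% after median-of-ratios rescaling, which gave 1875 higher and 1754 lower. With small-RNA genes removed 42.6% of calls were higher, and with nuclear protein-coding genes alone 30.1% (1304 higher and 3025 lower), so the balance of directions depends on the scale. On both scales 2707 genes were called (17.8%), 953 higher (6.28%) and 1754 lower (11.6%), and these last 2 percentages are the background for the counts that follow. They are all the higher calls on TPM and all the lower calls after rescaling, so the stricter scale set each direction. The gene lists were chosen with earlier results of these data known, so the share of a list may follow in part from that choice. Of the genes called on both scales, 268 higher (1.77% of all tested) and 289 lower (1.91%) differed at least 2-fold on TPM. The 2-fold minimum was not applied after rescaling. Calls on both scales fell to 462 higher and 845 lower without Control replicate 1, to 452 and 692 without Control replicate 2, and to 648 and 1177 without Treated replicate 1, and were 1091 and 1276 without Treated replicate 2. All 8 repeats kept 334 higher genes (2.2%) and 549 lower genes (3.62%).

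**Figure D1:**
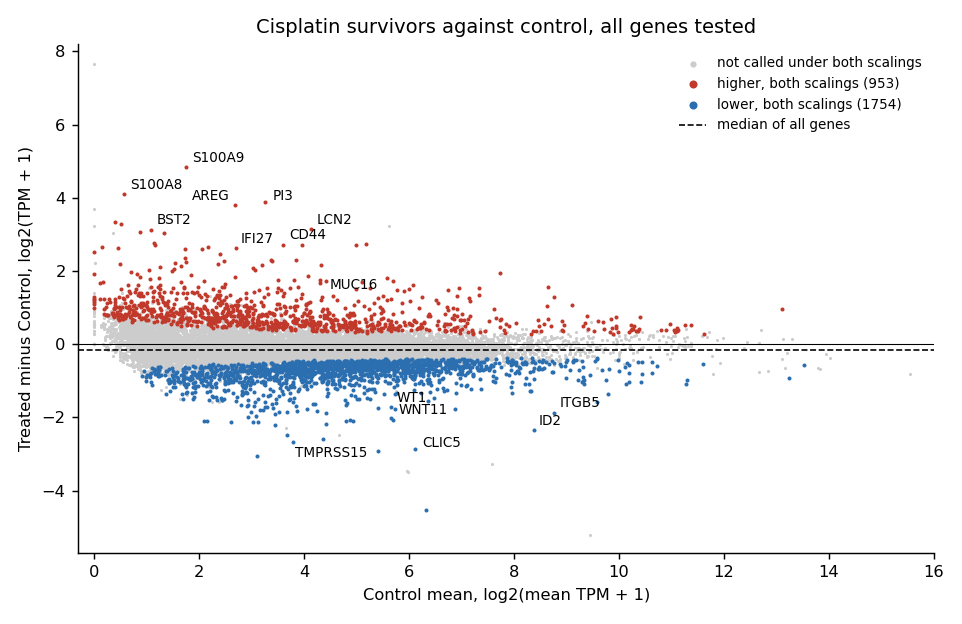
Each point is 1 of 15167 genes, with its Control level on the x axis (log2 of mean TPM + 1) and its Treated minus Control difference on the y axis (log2). Red and blue mark the 953 higher and 1754 lower genes called on both scales, and the dashed line the median of all genes at -0.147. S100A9 and S100A8 lead the rises and ID2 and ITGB5 stand out among the falls of abundant genes.

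The 14 largest rises and the 14 largest falls in the survivors were in genes of mixed function. S100A9 (ENSG00000163220, chr1:153357854-153361027 in GRCh38, GENCODE 29) encodes a subunit of calprotectin, a calcium-binding protein that withholds metals from microbes. It stood at 2.56 and 2.20 TPM in the Control libraries and at 90.3 and 101.4 TPM in the Treated libraries, a difference of 4.84 (SE 0.19, adjusted p = 2.7e-06). Its partner S100A8 went from 0.791 and 0.196 TPM to 20.9 and 27.4 TPM (difference 4.09). For both subunits the 2 groups were far apart. PI3, the elastase inhibitor elafin, stood at 8.88 and 8.29 TPM in Control and at 139 and 143 TPM in Treated (difference 3.89, adjusted p = 4.71e-06). AREG, the EGF-family ligand amphiregulin, went from 5.62 and 5.25 TPM to 101.5 and 77.3 TPM (difference 3.80, adjusted p = 1.66e-05). The acute-phase protein gene SAA1, which shares sequence with SAA2, went from 0.467 and 0.167 TPM to 15.3 and 9.89 TPM (difference 3.35). LCN2, the iron-siderophore binder lipocalin 2, went from 17.2 and 16 TPM to 149 and 159 TPM (difference 3.14).

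The other genes among the 14 largest rises were these. DHRS9, a retinol and steroid dehydrogenase gene, rose by 3.28 to 13.9 and 11.8 TPM from 0.422 and 0.425. CDA, cytidine deaminase of pyrimidine salvage, rose by 3.04 to 17.7 and 21.7 TPM from 1.64 and 1.38. CD44, the hyaluronan receptor, rose by 2.72 (adjusted p = 6.23e-05) from 11.7 and 10.61 TPM to 85.0 and 73.4 TPM. MAL, a membrane raft protein of apical sorting, rose by 2.71, and the S100 protein gene S100A14 by 2.74 from 34.7 and 36.0 TPM to 275 and 213 TPM. ITGB2, the beta-2 integrin better known from leukocytes, rose by 2.77 from 1.26 and 1.17 TPM to 14.8 and 13.5 TPM. The remaining leaders, BST2 and IFIT1, are interferon-stimulated genes and are described with their group.

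TMPRSS15, which encodes enteropeptidase, had the largest fall among named genes, from 41.2 and 41.8 TPM in Control to 4.63 and 4.52 TPM in Treated (difference -2.93, SE 0.12, adjusted p = 2.81e-06). CLIC5, an intracellular chloride channel family member of microvilli, fell by 2.86 from 63.0 and 72.8 TPM to 9.05 and 7.87 TPM. The transcription factor NPAS3 fell by 2.67, SAMD11 by 2.59, the axon guidance gene NTNG1 by 2.20 and the gap junction connexin GJA1 by 2.17. Receptor genes were among the 14 as well. The substance P receptor TACR1 fell by 2.14 from 4.77 and 5.34 TPM to 0.459 and 0.291 TPM, the alpha-2A adrenergic receptor ADRA2A by 2.13, and the GABA receptor subunit GABRA2 by 2.06. GUCY1B3, a subunit of the nitric oxide receptor guanylate cyclase, fell by 2.10 and GAB2, a signalling adaptor, by 2.09. ID2, ID4 and WNT11 complete the list. All 28 named rises and falls were called in all 8 repeats without a library.

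**Figure D2:**
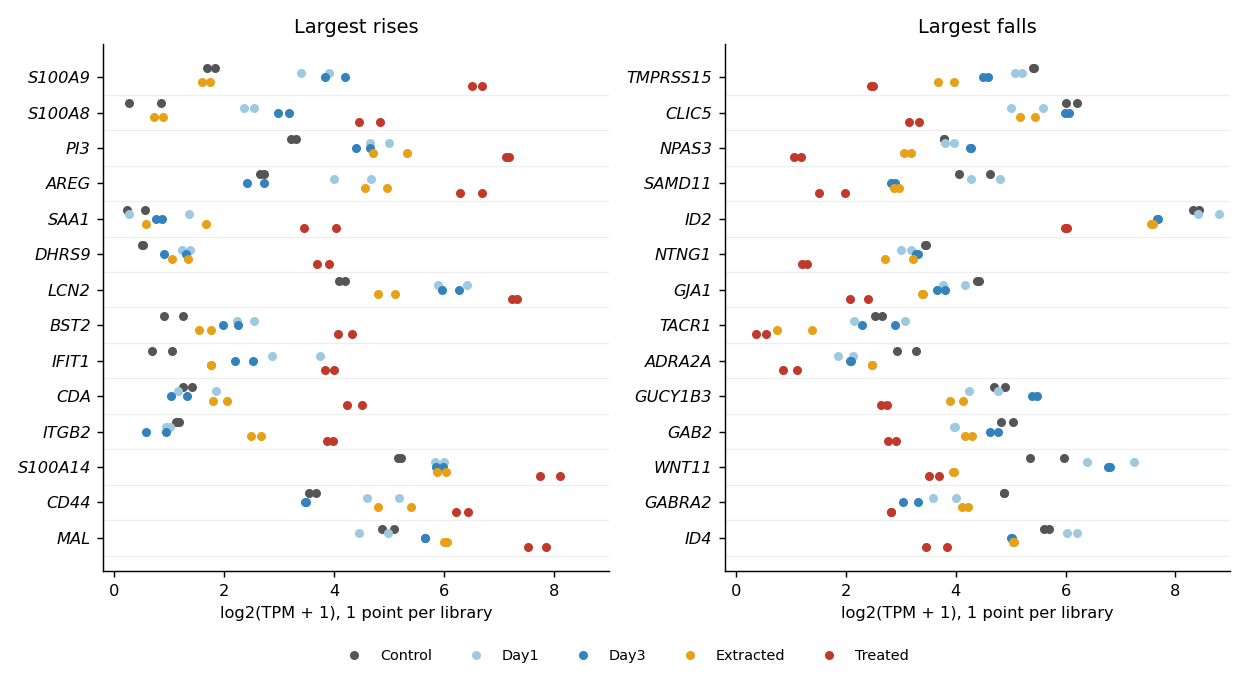
Each row is 1 of the 14 largest rises (left) or falls (right), each point 1 library, and the x axis log2(TPM + 1). The Treated points (red) lie apart from the Control points (dark grey) in every row, and the 2 replicates of a group lie close together.

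Interferon-stimulated genes encode antiviral effectors and sensors, and many carry an interferon-stimulated response element in their promoters. Of 28 measured members, 22 rose and 0 fell in the survivors, 78.6% against 6.28% of all genes, with a median difference of 1.14 (median of all genes -0.147). BST2 (tetherin, which holds budding virus at the membrane; ENSG00000130303) went from 1.37 and 0.879 TPM to 19.1 and 15.8 TPM, a difference of 3.12 (SE 0.19, adjusted p = 1.79e-05). IFIT1, which binds viral RNA, went from 0.599 and 1.06 TPM to 14.8 and 13.3 TPM (difference 3.05, adjusted p = 9.03e-05). The mitochondrial protein gene IFI27 went from 6.30 and 4.66 TPM to 37.5 and 39.8 TPM (difference 2.62, adjusted p = 4.62e-05). In each of these 3 genes the lowest Treated library was several times above the highest Control library. Other large rises were in IFITM1, which restricts viral entry (2.61), IFI6 (2.59), the GTPase MX1 (2.27) and the ubiquitin-like modifier ISG15 (2.16, from 19.2 and 18.8 TPM to 96.4 and 81.0 TPM). IFITM1, IFITM2 and IFITM3 are near-identical in part, so their reads may have been divided between them.

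Among the transcription factors of the interferon group, IRF9 rose by 1.38 from 11.2 and 17.9 TPM to 42.8 and 34.8 TPM and IRF7 by 0.91. STAT2 did not pass the test on both scales (0.17, adjusted p = 0.295). Neither did IRF1 (0.10), USP18 (0.17), CMPK2 (0.01), the RNA sensor DDX58 (-0.10) or MX2 (-0.70, adjusted p = 0.0883), a neighbour of MX1 on chromosome 21. The count of rises was 19, 17, 19 and 19 without Control replicate 1, Control replicate 2, Treated replicate 1 and Treated replicate 2, and 16 members were called in all 8 repeats. The group stood at a summed 518 and 521 TPM in Control, 1071 and 1112 TPM in Treated, 574 and 569 TPM in Extracted, 970 and 932 TPM in Day1 and 812 and 903 TPM in Day3.

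The promoters of the leading members are shown because they hold the letters of that response element. RefSeq start sites on GRCh38.p14 matched 20 of the 28 members. The response element was searched as GAAA, a pair of any bases and GAAA again, on both strands in the 200 bases before the start. It was found in 15 of the 20, in 15 of the 17 that rose and 0 of the 3 others, and in 2.97% of 27305 symbols. A match is a run of letters and not evidence of binding. The group is known for this element and only 3 matched members did not rise, so these counts are a description and not a test. Capitals mark the matches, which read TTTC and so on where they lie on the opposite strand. The windows are BST2 (chr19:17405631-17405830, minus strand), IFIT1 (chr10:89392423-89392622, plus strand), IFI27 (chr14:94110536-94110735, plus strand) and IFITM1 (chr11:313840-314039, plus strand), each printed 5′ to 3′ toward the gene.
BST2: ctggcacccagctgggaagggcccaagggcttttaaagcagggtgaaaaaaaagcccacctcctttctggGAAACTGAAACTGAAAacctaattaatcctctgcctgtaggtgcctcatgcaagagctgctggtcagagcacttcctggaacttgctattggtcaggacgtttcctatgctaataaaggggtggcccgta
IFIT1: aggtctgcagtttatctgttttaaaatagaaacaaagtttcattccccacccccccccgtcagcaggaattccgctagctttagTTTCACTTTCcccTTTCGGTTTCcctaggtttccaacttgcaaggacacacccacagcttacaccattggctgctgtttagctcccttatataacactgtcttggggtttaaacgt
IFI27: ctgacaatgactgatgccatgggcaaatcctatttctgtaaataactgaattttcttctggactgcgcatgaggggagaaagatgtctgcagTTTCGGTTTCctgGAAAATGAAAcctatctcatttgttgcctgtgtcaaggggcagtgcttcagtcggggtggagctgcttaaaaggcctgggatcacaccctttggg
IFITM1: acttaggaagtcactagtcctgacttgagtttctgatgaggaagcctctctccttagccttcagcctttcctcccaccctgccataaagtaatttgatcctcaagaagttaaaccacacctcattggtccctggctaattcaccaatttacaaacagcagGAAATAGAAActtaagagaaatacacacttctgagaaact
In BST2 the element is doubled with overlap, beginning 130 bases before the start. In IFIT1 and IFI27 there are 2 separate matches, the first 116 and 108 bases before the start, and IFITM1 has 1 match, 40 bases before it.

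S100 and secreted defence proteins bind calcium, metals, bacteria or proteases at epithelial surfaces. In this group 18 of 21 measured members rose and 1 fell, 85.7% higher against 6.28% of all genes, with a median difference of 1.54. The list was written with earlier results of these data known, so its high share may follow in part from that choice. Behind S100A9, S100A8, PI3, SAA1 and LCN2 came SAA2 (2.19) and the complement genes C3 and CFB. C3, the central complement component, went from 200 and 226 TPM to 981 and 688 TPM (difference 1.95, adjusted p = 5.44e-05), and CFB rose by 1.05. The protease inhibitor SLPI went from 388 and 413 TPM to 1360 and 1012 TPM (difference 1.55). S100A7 was listed at 0 in both Control libraries and at 4.21 and 1.70 TPM in Treated. Like S100A8 and SAA1, it was under 1 TPM in both Control libraries and could hardly have fallen, and all of these count among the 18 rises. Of the 18 rises 16 were called in all 8 repeats.

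The S100 genes lie in a cluster on chromosome 1, and the direction within it differed between its ends. Of 13 tested, the 11 between S100A9 and S100A1 (chr1:153357854-153632039) all had positive differences and 10 rose. The exception, S100A3 (0.63), lies within the span of S100A4, and S100A13 and S100A1 overlap on opposite strands, so that their reads may be shared. S100A10 and S100A11 lie more than a megabase away (chr1:151982915-152047907). S100A10, the partner of annexin A2, fell by 0.48 from 1634 and 1522 TPM to 1225 and 1037 TPM, while S100A11 stood at 1148 and 1203 TPM in Control and 1187 and 1129 TPM in Treated (-0.02). The fall of S100A10 ended without Control replicate 1 (adjusted p = 0.125) or Treated replicate 2 (0.0502). The rise of S100A13 (0.49) ended without either Control library (0.15 and 0.131) or Treated replicate 1 (0.0948).

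**Figure D3:**
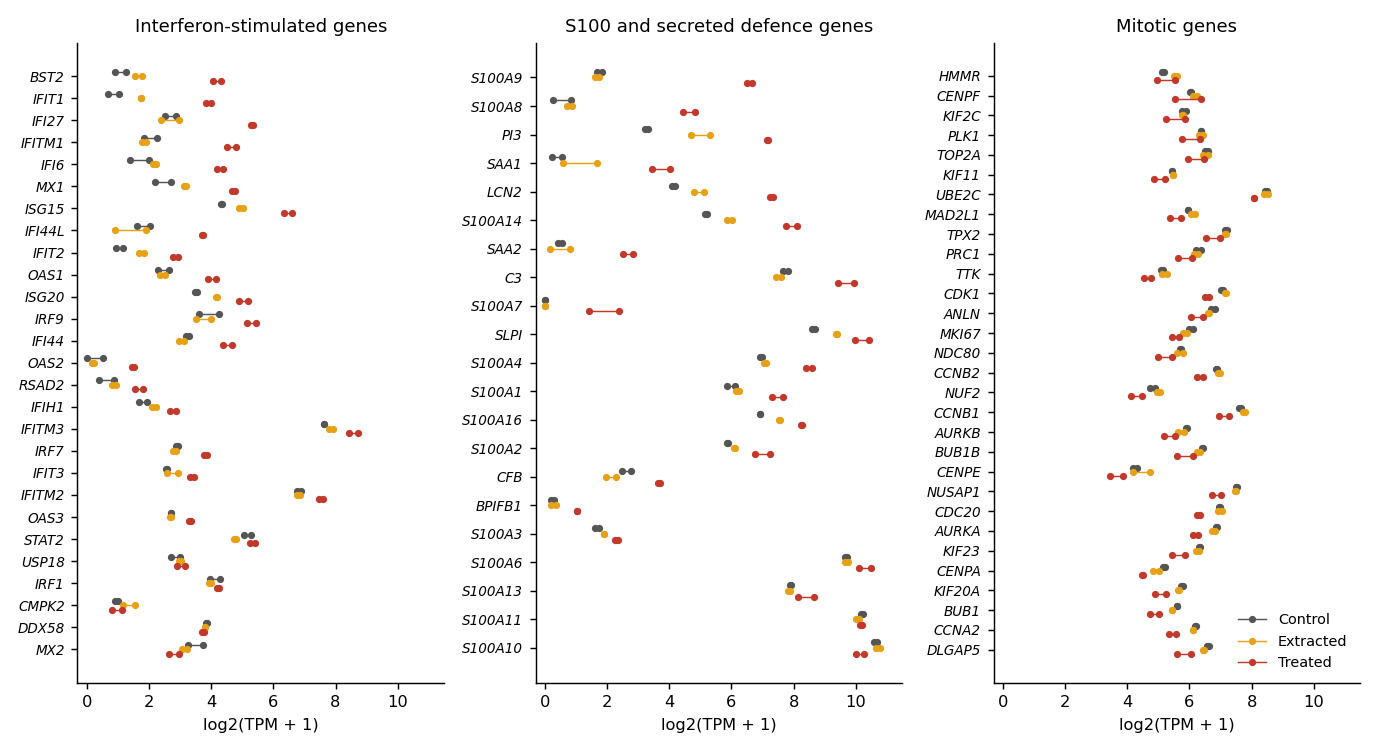
Each row is 1 gene of the interferon, S100 and defence, or mitotic group, each point 1 library, the line joins the 2 replicates of a group, and the x axis is log2(TPM + 1), with members not reported by name left out. Treated (red) lies to the right of Control (grey) and Extracted (orange) in most rows of the first 2 panels and to the left in most mitotic rows.

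NF-kB is a dimeric transcription factor held in the cytoplasm by IkB proteins until inflammatory or damage signals release it, and chemokine genes are among its targets. Of 27 measured genes of this group, 12 rose and 0 fell, with a median difference of 0.61. The neutrophil chemokines led. CXCL2 went from 4.24 and 4.29 TPM to 29.6 and 26.4 TPM (difference 2.46, SE 0.26, adjusted p = 0.000293), CXCL1 from 52.6 and 48.8 TPM to 174 and 163 TPM (1.71), and CXCL3 from 2.93 and 2.54 TPM to 9.87 and 7.76 TPM (1.39). The adhesion receptor ICAM1 rose by 1.43, IL18 by 1.33, CXCL8 by 1.31 and IL32 by 1.23. CXCL1, CXCL2 and CXCL3 are close paralogs between which reads may be divided. The subunits and feedback genes of the pathway did not pass the test, with RELA at -0.12, NFKB1 at -0.35 and NFKBIA at -0.26, nor did IL6 (0.61) or TNF (0.67). The rises numbered 8, 7, 10 and 9 without Control replicate 1, Control replicate 2, Treated replicate 1 and Treated replicate 2. CXCL3 (adjusted p = 0.0689) and CXCL8 (0.0533) lost their calls without Control replicate 2.

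The 3 chemokine promoters are shown for the kB site they share. The letters GGGA, any base and then TTTCC, on either strand of the 200 bases before a RefSeq start (GRCh38.p14), were found in 10 of the 20 matched members and in 0.56% of all 27305 symbols. The members that rose did not hold it more often, 4 of 10 against 6 of 10 of the others. The windows are CXCL2 (chr4:74099196-74099395, minus strand), CXCL1 (chr4:73869193-73869392, plus strand) and CXCL3 (chr4:74038690-74038889, minus strand), with the match in capitals.
CXCL2: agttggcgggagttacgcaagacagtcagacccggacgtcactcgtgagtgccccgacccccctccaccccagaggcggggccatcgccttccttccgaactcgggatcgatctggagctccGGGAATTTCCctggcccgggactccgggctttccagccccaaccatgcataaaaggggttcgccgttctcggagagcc
CXCL1: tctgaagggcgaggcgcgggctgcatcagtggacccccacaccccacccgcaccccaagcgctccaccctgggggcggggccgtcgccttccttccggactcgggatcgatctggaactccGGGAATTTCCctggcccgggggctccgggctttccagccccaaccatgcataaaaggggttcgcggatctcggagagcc
CXCL3: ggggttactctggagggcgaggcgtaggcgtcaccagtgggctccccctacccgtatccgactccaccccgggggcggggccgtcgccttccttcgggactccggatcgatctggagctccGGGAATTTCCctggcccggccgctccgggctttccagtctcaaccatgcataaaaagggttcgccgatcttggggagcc
In all 3 the match begins 78 or 79 bases before the start.

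Antigen presentation genes load peptides onto HLA molecules for display to T cells. Of 21 measured members 8 rose and 0 fell, with a median difference of 0.51. HLA-DMB and HLA-DMA, which edit peptides on class II molecules, rose by 1.25 and 0.95, the latter from 4.36 and 6.18 TPM to 10.04 and 12.02 TPM. PSMB9, a subunit of the immunoproteasome, rose by 0.88. CD74, the class II invariant chain, went from 83.9 and 79.4 TPM to 141 and 140 TPM (difference 0.78, adjusted p = 0.000516). The light chain of class I, B2M, rose by 0.51 from 1214 and 1170 TPM to 1925 and 1499 TPM, without a call when Control replicate 1 (adjusted p = 0.0624) or Control replicate 2 (0.0929) was left out. HLA sequences are so alike that single HLA genes are uncertain. The rises numbered 4 without either Control library and 7 without either Treated library.

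**Figure D4:**
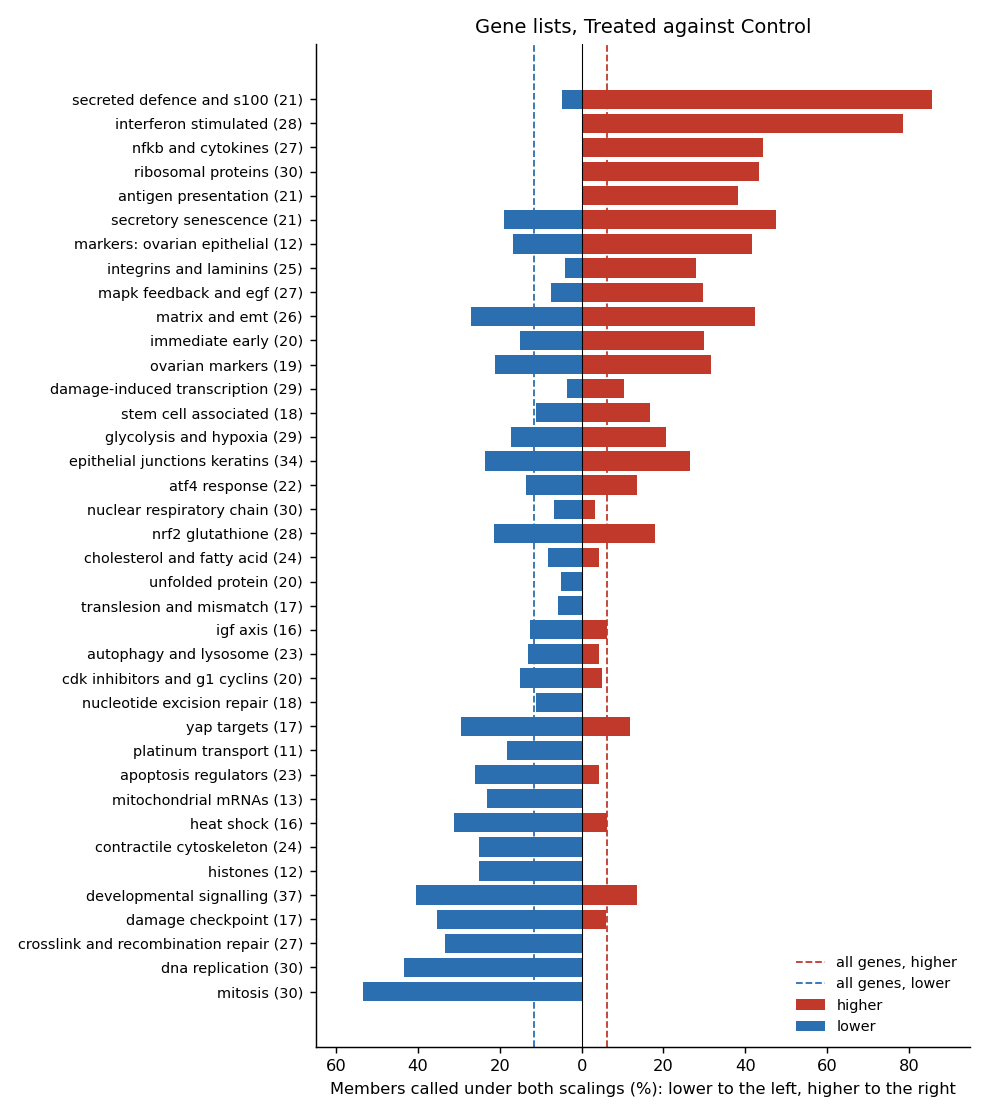
Bars give the percentage of the measured members of each gene list (number in brackets) that rose (right) or fell (left) on both scales in Treated against Control. Dashed lines mark all genes, 6.28% higher and 11.6% lower. Defence and interferon lists stand at the top at 85.7% and 78.6% higher, and mitosis and replication at the bottom. The lists were chosen with earlier results of these data known.

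Secreted proteases, growth factors and their inhibitors, which are also known from the senescence-associated secretory phenotype, moved in both directions, 10 higher and 4 lower of 21. Beside AREG, the matrix metalloprotease MMP7 rose by 2.65 from 0.0717 and 0.151 TPM to 7.16 and 4.95 TPM. The collagenase MMP1 rose by 1.97 from 0.643 and 0.599 TPM to 5.60 and 5.15 TPM. GDF15, a stress cytokine, rose by 2.26 from 2.19 and 2.56 TPM to 14.7 and 15.5 TPM, and the urokinase PLAU by 1.61. The metalloprotease inhibitor TIMP1 rose by 0.85. The 4 falls were IGFBP3 (-1.33), IGFBP5 (-0.94), the nuclear lamin LMNB1 (-0.82) and VEGFA (-0.49, from 29.4 and 30.3 TPM to 22.02 and 20.04 TPM). VEGFA lost its call without Control replicate 1 (adjusted p = 0.119), Control replicate 2 (0.125), Treated replicate 1 (0.114) or Treated replicate 2 (0.0589). The insulin-like growth factor axis as a list had 1 rise, of the receptor adaptor IRS2 (0.76), and 2 falls of 16, IGFBP3 and IGFBP5. These shares (6.25% and 12.5%) were near those of all genes (6.28% and 11.6%). IGFBP7 was called lower on TPM alone (-0.89).

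The EGF receptor is activated by ligands of the AREG family and signals through the MAP kinases, whose own phosphatases and Sprouty proteins act as feedback. Of 27 genes of this axis 8 rose and 2 fell. EREG, epiregulin, went from 0.153 and 0.0906 TPM to 2.76 and 2.50 TPM (difference 1.69), beside AREG at 3.80. The ligands TGFA and BTC rose too, with calls that ended without a Control library. HBEGF, another ligand of the same receptor, fell by 1.07 from 5.05 and 4.20 TPM to 1.91 and 1.46 TPM. The ligands thus did not all share a direction, though more of them rose than fell. EGFR itself stood at 23.9 and 25.0 TPM and at 30.4 and 26.9 TPM (0.22, adjusted p = 0.383). Among feedback genes DUSP5 rose by 1.74 (adjusted p = 5.44e-05), DUSP6 by 1.05 and SPRY1 by 1.00, while DUSP1 fell by 0.62. The rises numbered 7, 5, 7 and 7 without Control replicate 1, Control replicate 2, Treated replicate 1 and Treated replicate 2, and the falls 0, 1, 1 and 2. DUSP6 lost its call without Control replicate 2 (0.086) and HBEGF without Control replicate 1 (0.0587). DUSP1 lost its call without either Control library (0.0502 and 0.06) or Treated replicate 1 (0.0522).

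Immediate-early genes are transcription factors that growth and stress signals switch on within minutes, and 6 of 20 rose while 3 fell. FOSL1, the AP-1 subunit FRA1, went from 4.14 and 4.08 TPM to 22.9 and 21.6 TPM (difference 2.19, adjusted p = 0.000491). FOS rose by 1.36 and EGR1, a zinc-finger factor downstream of MAP kinases, by 1.30, from 18.9 and 19.4 TPM to 44.8 and 52.6 TPM. The orphan receptor NR4A2 fell by 1.19, the serum response factor SRF by 0.85 and FOSL2, a paralog of FOSL1, by 0.64. The 3 named rises and the 3 falls were called in all 8 repeats. JUN (-0.17), MYC (0.12) and ATF3 (-0.10) did not pass the test.

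Signalling genes of development had more falls than rises, 15 lower and 5 higher of 37 (11.6% and 6.28% of all genes), with a median of -0.31. The ID proteins bind E-protein transcription factors and are induced by BMP signals through SMADs. All 4 fell. ID2 (ENSG00000115738, chr2:8678845-8684453) went from 316 and 344 TPM to 64.4 and 62.8 TPM (difference -2.36, SE 0.12, adjusted p = 5.17e-06), and ID4 from 47.9 and 51.1 TPM to 13.3 and 10.1 TPM (-2.005, adjusted p = 2.15e-05). ID3 fell by 1.15 and ID1 by 0.94, from 472 and 543 TPM to 279 and 250 TPM. The inhibitory SMADs, which are BMP and TGF-beta targets too, fell with them, SMAD6 by 1.47 and SMAD7 by 0.97, and so did the BMP antagonist FST by 1.11. BMP4, a ligand, was at 1.91 and 1.87 TPM in Control and 4.33 and 2.94 TPM in Treated and did not pass the test on TPM (0.67, adjusted p = 0.0545). TGFB1 rose by 0.99 and its receptor TGFBR2 by 0.77.

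In the WNT pathway, in which secreted ligands stabilise beta-catenin to act with TCF and LEF factors, WNT11 fell by 2.06 from 39.6 and 62.0 TPM to 11.9 and 10.4 TPM. LEF1 fell by 1.97 from 7.003 and 8.03 TPM to 1.01 and 1.36 TPM. WNT7A rose by 1.24 from 1.44 and 1.46 TPM to 5.29 and 4.30 TPM, and the pathway's feedback gene AXIN2 did not pass the test (0.18, adjusted p = 0.518). Of the Notch target genes HEY2 fell by 1.28, while HES1 was higher by 0.48. HES1 lost its call without any of Control replicate 1 (0.128), Control replicate 2 (0.142), Treated replicate 1 (0.0793) or Treated replicate 2 (0.0898). The falls of the list numbered 13, 10, 13 and 12 without those libraries in the same order, and 10 were called in all 8 repeats.

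Matrix and mesenchymal genes were divided, 11 higher and 7 lower of 26. COL17A1, a transmembrane collagen of hemidesmosomes, went from 0.931 and 1.56 TPM to 13.1 and 14.1 TPM (difference 2.71, adjusted p = 5.27e-05). S100A4 rose by 1.54, from 120 and 125 TPM to 382 and 338 TPM, and the lysyl oxidase-like gene LOXL2 by 1.07. The falls included the smooth-muscle protein TAGLN (-1.86, from 10.5 and 12.99 TPM to 3.02 and 2.04 TPM), lysyl oxidase LOX (-1.43), N-cadherin CDH2 (-1.34) and tenascin TNC (-1.22, from 162 and 167 TPM to 81.9 and 59.4 TPM). VIM, vimentin, stood at 1.66 and 1.84 TPM and at 2.42 and 1.91 TPM (0.20, adjusted p = 0.435). The rises depended on single libraries, with 5, 5, 4 and 6 left without Control replicate 1, Control replicate 2, Treated replicate 1 and Treated replicate 2, while the falls numbered 5, 5, 6 and 6.

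Epithelial junction and keratin genes gave 9 rises and 8 falls of 34. Keratins were among the rises. KRT81, a hair-type keratin with a close paralog in KRT86, went from 4.07 and 2.99 TPM to 28.1 and 26.3 TPM (difference 2.65), KRT19 rose by 1.04 and KRT18 by 0.74. The falls were mostly of junction proteins, with the tight-junction scaffold TJP1 at -0.87, desmoplakin DSP at -0.73 and E-cadherin CDH1 at -0.51, from 90.4 and 95.8 TPM to 67.6 and 62.6 TPM. Junction genes did not share a direction, since TJP3, a paralog of TJP1, rose (0.90 after median-of-ratios rescaling). Leaving out Control replicate 1, Control replicate 2, Treated replicate 1 or Treated replicate 2 left 6, 7, 10 or 9 rises and 3, 2, 2 or 4 falls. CDH1 lost its call without either Control library (0.0507 and 0.0787) or Treated replicate 1 (0.0543), and TJP1 without Control replicate 2 (0.0567).

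Integrins and laminins, the receptors and sheets of the basement membrane, gave 7 rises and 1 fall of 25. The laminin chain LAMA3 rose by 1.55 (from 171 and 149 TPM to 494 and 443 TPM), and the laminin chain LAMB3 by 0.58. Of the integrin chains that bind laminin ITGA3 rose by 1.12 and ITGB4 by 0.56. The basement membrane protein nidogen 2 (NID2) rose by 1.75. ITGB5, the beta-5 integrin that binds vitronectin, fell by 1.87 from 396 and 473 TPM to 161 and 85.7 TPM (adjusted p = 0.000768). The rises numbered 4, 5, 5 and 6 without Control replicate 1, Control replicate 2, Treated replicate 1 and Treated replicate 2. LAMB3 lost its call without either Control library (0.121 and 0.126) or Treated replicate 1 (0.117), and ITGB4 without any 1 of the 4 (0.189, 0.0667, 0.083 and 0.0831).

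Contractile cytoskeleton genes gave 0 rises and 6 falls of 24. Caldesmon CALD1 fell by 0.87 from 201 and 185 TPM to 127 and 87.2 TPM, and the actin crosslinkers ACTN4 and ACTN1 by 0.80 and 0.69. YAP targets, which respond to tension and cell contact, gave 2 rises and 5 falls of 17. AXL, a receptor tyrosine kinase, rose by 1.56 from 1.28 and 1.34 TPM to 5.89 and 5.78 TPM, while AJUBA fell by 1.30 and AMOT by 1.26. AMOT lost its call without Control replicate 2 (0.065). The YAP falls numbered 5, 2, 4 and 4 without Control replicate 1, Control replicate 2, Treated replicate 1 and Treated replicate 2, and the rises 1, 1, 1 and 2. The best-known targets of the pathway went separate ways in value, CYR61 at -0.30 without a call and CTGF higher by 0.40, a call that ended without either Control library (0.0952 and 0.125) or Treated replicate 1 (0.065).

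Genes of cell division were lower. Of 30 mitotic genes 16 fell and 0 rose (53.3% against 11.6% of all genes, and 20 on TPM alone), with a median of -0.51 beside -0.147 for all genes. DLGAP5, a spindle protein, went from 97.2 and 92.9 TPM to 65.8 and 47.8 TPM (difference -0.75, SE 0.14, adjusted p = 0.00459). Cyclin A2 (CCNA2) fell by 0.75 from 73.2 and 72.0 TPM to 46.1 and 39.8 TPM, and the checkpoint kinase BUB1 by 0.73. MKI67, the proliferation marker Ki-67, stood at 62.1 and 67.9 TPM in Control and 49.2 and 42.5 TPM in Treated and did not pass the test (-0.50, adjusted p = 0.0648). TOP2A (-0.35) and PLK1 (-0.34) did not pass either. The falls numbered 7, 10, 16 and 13 without Control replicate 1, Control replicate 2, Treated replicate 1 and Treated replicate 2. In bulk RNA, fewer dividing cells and less of each RNA per cell cannot be told apart.

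DNA replication genes gave 13 falls and 0 rises of 30 (16 falls on TPM alone), with a median of -0.47. ORC1, which marks replication origins, fell by 0.88 from 14.5 and 14.1 TPM to 7.68 and 6.94 TPM (adjusted p = 0.00083), the helicase subunit MCM4 by 0.77 from 319 and 314 TPM to 213 and 161 TPM, and the licensing factor CDC6 by 0.73. PCNA, the sliding clamp, did not pass the test (-0.27). The falls numbered 7, 5, 8 and 11 without Control replicate 1, Control replicate 2, Treated replicate 1 and Treated replicate 2. Replication-dependent histone genes lack poly(A) tails and are measured only in part by libraries that select them, and how these libraries were selected is not given in the sources used here. Of 12 such genes 3 fell (7 on TPM alone), led by HIST1H2BJ (-1.36, from 11.7 and 10.5 TPM to 3.57 and 3.85 TPM). The histone falls numbered 1, 1, 1 and 5 without the same libraries in that order.

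Among regulators of the G1 phase, 1 of 20 rose (5%) and 3 fell (15%), near the 6.28% and 11.6% of all genes. On TPM alone 9 were called lower. The CDK inhibitor CDKN1C (p57) rose by 0.86 from 13.9 and 16.04 TPM to 26.7 and 29.2 TPM. CDK6 fell by 0.69. Cyclin E1 (CCNE1), whose locus is amplified in this line, fell by 0.66 from 181 and 171 TPM to 122 and 100.6 TPM (adjusted p = 0.00242) and was called in all 8 repeats. CDK6 lost its call without either Control library (0.052 and 0.0942) or Treated replicate 1 (0.0663). The count of falls was 1, 1, 1 and 2 without Control replicate 1, Control replicate 2, Treated replicate 1 and Treated replicate 2.

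The repair pathways for platinum adducts showed no rises. Nucleotide excision repair, the route for adducts within a strand, had 2 falls of 18 members, a share close to the 11.6% of all genes. RAD23B, a partner of the damage sensor XPC, fell by 0.64 from 157 and 154 TPM to 103 and 96.5 TPM, and the helicase ERCC3 fell by 0.49. ERCC1, the nuclease subunit most often measured in platinum studies, was at 27.4 and 34.0 TPM in Control and 35.7 and 35.9 TPM in Treated (0.22, adjusted p = 0.246). ERCC3 lost its call without any of Control replicate 1 (0.182), Control replicate 2 (0.0806), Treated replicate 1 (0.0551) or Treated replicate 2 (0.134).

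Crosslink and recombination repair genes gave 9 falls of 27 (33.3%, and 14 on TPM alone) and 0 rises, with a median of -0.44. XRCC3, a recombination protein, went from 40.01 and 42.0 TPM to 20.2 and 18.5 TPM (difference -1.05, SE 0.14, adjusted p = 0.000869). The strand-annealing protein RAD52 fell by 0.90 and the translocase RAD54L by 0.88. Of the Fanconi genes FANCC (-0.85), FANCE (-0.79), FANCA (-0.73), FANCI (-0.63) and the ubiquitin ligase partner UBE2T (-0.59) fell, as did the helicase BRIP1 (-0.88). BRCA1 was at 17.5 and 15.5 TPM in Control and 15.9 and 11.6 TPM in Treated and did not pass the test (-0.26, adjusted p = 0.319), nor did BRCA2 (-0.43). Only XRCC3 and BRIP1 of the 27 were called in all 8 repeats. The falls numbered 7, 3, 5 and 6 without Control replicate 1, Control replicate 2, Treated replicate 1 and Treated replicate 2. RAD52 lost its call without Control replicate 2 (0.107) or Treated replicate 2 (0.0783), and RAD54L (0.0633), FANCE (0.0548), FANCA (0.108) and FANCI (0.12) without Control replicate 2. FANCA (0.0625), FANCI (0.0556) and UBE2T (0.0829) lost theirs without Treated replicate 1, UBE2T also without Control replicate 1 (0.126) and FANCI without Treated replicate 2 (0.0667). FANCC was not called without any 1 of the 4 libraries (0.242, 0.0735, 0.0541 and 0.21).

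Translesion polymerases, which copy past adducts, and mismatch repair gave 1 fall of 17 (5.88% beside 11.6% of all genes). It was of the exonuclease EXO1 (-0.69, from 25.1 and 24.8 TPM to 17.6 and 12.96 TPM). EXO1 lost its call without Control replicate 1 (0.0543) or Control replicate 2 (0.0578). POLH, the polymerase that bypasses platinum crosslinks, was called lower on TPM alone (-0.58). Of 17 checkpoint genes 6 fell and 1 rose. The damage mediator MDC1 fell by 1.03 from 39.3 and 42.1 TPM to 23.2 and 16.3 TPM, CLSPN, which activates CHK1, by 0.83, the phosphatase CDC25A by 0.63 and the kinase ATR by 0.53. The checkpoint falls numbered 2, 1, 5 and 1 without Control replicate 1, Control replicate 2, Treated replicate 1 and Treated replicate 2, and MDC1 alone was called in all 8 repeats. CLSPN lost its call without Control replicate 2 (0.0921) or Treated replicate 2 (0.0757), and CDC25A without either Control library (0.186 and 0.121) or Treated replicate 2 (0.217). ATR was not called without any 1 of the 4 (0.178, 0.064, 0.0952 and 0.0806). SLFN11, which blocks stressed replication forks, was at 0.994 and 1.675 TPM in Control and 0.473 and 0.600 TPM in Treated (-0.59, adjusted p = 0.0895).

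Among 29 genes of the damage-induced transcription list 3 rose (10.3%) and 1 fell (3.45%), beside 6.28% and 11.6% of all genes. Most of the classical ones did not pass the test. GDF15 rose by 2.26, the death receptor FAS by 1.34 from 5.39 and 4.70 TPM to 16.5 and 12.4 TPM, and the kinase PLK3 by 0.72. CDKN1A (p21) was at 3.45 and 5.69 TPM in Control and 6.01 and 5.21 TPM in Treated, groups that overlap (0.27, adjusted p = 0.311). MDM2 (-0.18) and BAX (-0.10) did not pass. PLK3 lost its call without Control replicate 1 (0.274) or either Treated library (0.124 and 0.104).

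Apoptosis regulators gave 1 rise and 6 falls of 23, and the falls included genes of both actions. The killer BMF, a BH3-only protein, fell by 1.30 from 34.6 and 44.5 TPM to 15.6 and 15.1 TPM and the pore former BAK1 by 0.70. The survival genes XIAP, MCL1 and BCL2L1 (BCL-XL) fell by 0.79, 0.44 and 0.41, BCL2L1 from 176 and 179 TPM to 138 and 128 TPM. The one rise was of BIK, a BH3-only gene, at 0.526 and 0.868 TPM in Control and 1.82 and 1.47 TPM in Treated. BMF alone was called in all 8 repeats, and the falls numbered 1, 1, 3 and 3 without Control replicate 1, Control replicate 2, Treated replicate 1 and Treated replicate 2, with 0 rises in each. The highest adjusted p without a library was 0.0758 for BAK1, 0.132 for XIAP and 0.142 for BCL2L1 when a Control library was left out, and 0.162 for XIAP without Treated replicate 2. MCL1 (0.0948 to 0.155) and BIK (0.0689 to 0.194) were not called without any 1 of the 4.

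Platinum transport genes showed 2 falls and 0 rises of 11. The falls were 18.2% of the list beside 11.6% of all genes, and with so few members the counts are not read further. SLC31A1, the copper transporter CTR1 that takes up cisplatin, was at 13.6 and 13.05 TPM in Control and at 8.23 and 8.13 TPM in Treated (difference -0.64, SE 0.12, adjusted p = 0.00417). LRRC8D, a subunit of the volume-regulated anion channel that also admits cisplatin, fell by 0.52 from 44.7 and 45.0 TPM to 34.2 and 28.0 TPM. Its partner LRRC8A was called on TPM alone (-0.39). The copper exporters ATP7A (3.11 and 3.92 TPM against 2.91 and 2.13 TPM) and ATP7B (1.465 and 1.705 TPM against 0.9795 and 0.7497 TPM) did not pass the test. SLC31A1 lost its call without Control replicate 1 (0.0682) or Treated replicate 1 (0.0544), and LRRC8D without any of the 4 libraries (0.172, 0.146, 0.0944 and 0.153).

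Efflux pumps of the ABC family export drugs and drug conjugates. Among them 0 rose and 1 of 8 fell (12.5%, near the 11.6% of all genes). That was ABCB6 (-0.64, from 17.0 and 20.96 TPM to 11.9 and 11.65 TPM), which lost its call without any 1 of the 4 libraries (0.0684, 0.25, 0.185 and 0.0733). The multidrug pump ABCB1 stayed below the filter, at 0.0920 and 0.0617 TPM in Control and 0.137 and 0.251 TPM in Treated. So did the cisplatin conjugate pump ABCC2, at 0.2001 and 0.0131 TPM and at 0.0434 and 0.0615 TPM. Metallothioneins bind metals, platinum included, through their cysteines. MT2A rose by 1.48 from 50.9 and 56.5 TPM to 158 and 146 TPM (adjusted p = 0.000767), the single rise among 5 measured genes of metal response, and was called in all 8 repeats. MT1X (0.28) and MT1F (-0.14), near-identical to it in part, did not pass.

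Glutathione and NRF2 genes supply antioxidant capacity and can bind platinum. Of 28 measured members 5 rose and 6 fell. Ferritin heavy chain FTH1 rose by 0.97 from 8559 and 9085 TPM to 18488 and 16091 TPM (adjusted p = 0.000199), ferritin light chain FTL by 0.48, the glutathione peroxidases GPX4 and GPX1 by 0.66 and 0.57, and the aldo-keto reductase AKR1C1 by 0.92. Thioredoxin reductase TXNRD1 fell by 1.02 from 196 and 202 TPM to 108 and 87.4 TPM, malic enzyme ME1 by 0.98, the cystine transporter SLC7A11 by 0.77, the quinone reductase NQO1 by 0.74 and catalase CAT by 0.47. AKR1C1 was called in 2 and CAT in 4 of the 8 repeats. Their highest adjusted p values were 0.15 for AKR1C1 without Treated replicate 2 and 0.168 for CAT without Control replicate 2. AKR1C1 is near-identical to AKR1C2 (-0.45, not called), so reads may have been divided between them. The count of rises was 4, 4, 5 and 7, and of falls 4, 4, 5 and 7, without Control replicate 1, Control replicate 2, Treated replicate 1 and Treated replicate 2. The ferritin genes have many processed pseudogenes to which reads may have been assigned.

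The 13 mRNAs of the mitochondrial genome were lower in value, and 3 fell (8 on TPM alone). Their median was -0.69 on TPM and -0.52 after rescaling. MT-ND6 fell by 1.17 from 223 and 264 TPM to 129 and 89.6 TPM, MT-ND5 by 1.10 and MT-ND2 by 0.93. They encode subunits of complex I. MT-ND6 lies opposite the other mRNA genes, and with the strand setting not given its reads cannot be told apart from theirs. MT-ND5 and MT-ND2 lost their calls without any 1 of the 4 libraries, with adjusted p from 0.066 to 0.124. The nuclear-encoded respiratory chain had 1 rise and 2 falls of 30 and a median of -0.14, close to all genes. Its 2 falls and 1 rise were not called without either Control library.

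Ribosomal protein genes shifted upward by a small amount, 13 rises and 0 falls of 30, and 24 rises after rescaling alone. RPL18 rose by 0.57 from 652 and 659 TPM to 1000 and 954 TPM and RPS6 by 0.53. The median was 0.25 on TPM and 0.41 after rescaling. The count rested on the Control libraries, with 1 rise without Control replicate 1, 3 without Control replicate 2, 13 without Treated replicate 1 and 19 without Treated replicate 2. RPS6 lost its call without either Control library (0.0762 and 0.0868). Ribosomal genes have pseudogene copies that may share their reads.

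Ovarian carcinoma markers moved apart, 6 higher and 4 lower of 19. The list summed to 2074 and 2327 TPM in Control and to 2132 and 2034 TPM in Treated. MUC16, which carries the antigen CA125 (ENSG00000181143, chr19:8848844-8981342), went from 37.6 and 56.6 TPM to 104 and 112 TPM (difference 1.20, adjusted p = 0.00145). The kallikrein KLK6 went from 30.5 and 30.8 TPM to 95.5 and 82.3 TPM (1.503), the folate receptor FOLR1 rose by 1.47, and mesothelin MSLN by 0.82. The falls included WT1, a transcription factor of serous carcinoma (-1.72, from 46.3 and 52.8 TPM to 15.3 and 13.4 TPM), the GPI-anchored protein LYPD1 (-1.76) and the retinoic acid binder CRABP2 (-1.09). WT1 has an antisense transcript whose reads cannot be told apart from its own here. Of the 12 epithelial markers used to check the line, all were detected, and their sum was 5645 and 5816 TPM in Control and 8438 and 7160 TPM in Treated.

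Markers of other cell types were low, and most of them lay below the filter. Endothelial markers summed to at most 3.21 TPM in any library and 0 of 8 passed the filter. Of 10 leukocyte markers 3 passed, and their sum was 6.91 and 4.58 TPM in Control and 8.66 and 10.1 TPM in Treated, with CD3D at 0 in every library and ITGAM at 0 in all 4. The 3 that passed had a median difference of 0.59, with CD14 at 0.59 and CD68 at 0.72. None was called on both scales against Control, and CD14 was called after rescaling alone (adjusted p = 0.0313) and was higher than in Extracted (0.85). Their part in the interferon and defence results was not tested. Fibroblast markers summed to 16 and 14.2 TPM and to 15.9 and 10.8 TPM, and mesothelial markers to 20.5 and 23.8 TPM and to 22.7 and 24.7 TPM. Of 7 mesothelial markers 5 passed the filter, with a median difference of 0.39, and 0 were called. Of 18 stem-cell-associated genes 3 rose (16.7%) and 2 fell (11.1%), beside 6.28% and 11.6% of all genes. CD44 led, the protein C receptor PROCR rose by 0.95, and the aldehyde dehydrogenase ALDH1A1 fell by 1.23 from 13.5 and 17.7 TPM to 6.49 and 5.56 TPM. ALDH1A1 lost its call without Control replicate 2 (0.052). SOX2 (-0.06), CD24 (-0.03) and PROM1 (CD133, -0.37) did not pass the test. The 2 falls of this list numbered 1, 0, 2 and 1 without Control replicate 1, Control replicate 2, Treated replicate 1 and Treated replicate 2.

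Metabolic and stress lists held mixed calls. Hypoxia and glycolysis genes gave 6 rises and 5 falls of 29. The stress gene NDRG1 rose by 0.99 from 113 and 113 TPM to 271 and 187 TPM, phosphofructokinase PFKP by 0.96 and the mTORC1 inhibitor DDIT4 by 0.95, while the collagen hydroxylase P4HA2 fell by 0.79. These rises numbered 3, 5, 5 and 6, and the falls 1, 2, 2 and 3, without Control replicate 1, Control replicate 2, Treated replicate 1 and Treated replicate 2. In the ATF4 list 3 rose and 3 fell of 22, with GDF15 and NUPR1 (1.39) higher and SLC7A11 lower, and its falls numbered 1 without either Control library. Of 16 heat-shock genes 5 fell and 1 rose. The small heat-shock protein HSPB1 rose by 1.07 from 549 and 555 TPM to 1142 and 1178 TPM, and HSP90AA1 fell by 0.59 and HSPA1B, nearly identical to HSPA1A, by 0.58. The heat-shock falls numbered 1, 0, 5 and 3 without those libraries in the same order, while HSPB1 was called in all 8 repeats. HSP90AA1 lost its call without either Control library (0.079 and 0.0759) and HSPA1B without Control replicate 2 (0.068). The lysosomal protease gene CTSB rose by 1.28 from 426 and 434 TPM to 1073 and 1025 TPM (adjusted p = 4.14e-05), and the nuclear RNA NEAT1 by 1.01 from 102 and 108 TPM to 240 and 187 TPM.

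Survivors of cisplatin were compared with Extracted cells, which had survived the gel and recovered for the same 2 weeks, to see where they differed from cells that recovered from another stress. On TPM 1836 genes were called (12.1%), and on both scales 491 were higher (3.24%) and 718 lower (4.73%) in Treated. The interferon genes were again higher, 19 of 28 with a median difference of 0.93, as were 18 of 21 defence genes and 7 of 21 antigen presentation genes. S100A9 was at 2.35 and 2.03 TPM in Extracted, a difference of 4.92 from Treated (adjusted p = 2.28e-06). BST2 was at 2.40 and 1.92 TPM in Extracted (difference 2.55) and IFI27 at 4.23 and 6.90 TPM (2.63). For S100A9 and IFI27 the Extracted libraries lay near the Control libraries. For BST2 both Extracted libraries lay above both Control libraries, with an Extracted minus Control difference of 0.583 after median-of-ratios rescaling. Of 30 mitotic genes 15 were lower in Treated than in Extracted, and 0 of 30 ribosomal and 0 of 13 mitochondrial mRNAs differed. The call count was 246 and 166 without Extracted replicate 1 and 2, and 3143 and 731 without Treated replicate 1 and 2, so the number of calls rests on single libraries.

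Other genes that had changed against Control were not called between the survivor groups. FOSL1 was at 18.8 and 29.6 TPM in Extracted, a Treated minus Extracted difference of -0.08 (SE 0.26). IL18 was at 108 and 125 TPM (-0.05, SE 0.20), WNT11 at 14.4 and 14.7 TPM (-0.36, SE 0.26), MT2A at 115 and 132 TPM (0.30, SE 0.19) and GDF15 at 7.74 and 9.599 TPM (0.74, SE 0.26). A missed threshold does not show that the survivor groups were alike. Of 22 ATF4 genes, 1 was higher and 6 were lower in Treated than in Extracted. Both comparisons use the same Treated libraries.

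Differences were also laid out along the chromosomes, using 9934 protein-coding genes with a mean of at least 5 TPM, of which 14.6% fell and 6.16% rose. These positions were looked at after the values had been seen, and no test was made. In 914 windows of 40 neighbouring genes the median difference on the median-of-ratios scale ranged from -0.529 to 0.358 with an SD of 0.131. The windows lowest of all lay on chromosome 19. Merged, the lowest of them ran from ZNF585A to SNRPA (chr19:37106734-40765389), with 70 genes of which 55 were lower in value, 39 fell and 3 rose. On the rest of that chromosome 57 of 585 fell. The block was picked for its low medians, so its count of falls follows in part from that choice. Its edges follow the windows, and the genes from BLVRB to SNRPA at its far end were above Control after rescaling. Nearby windows were low too, such as C19orf12 to APLP1 (chr19:29698886-35879791), with a median of -0.336 in Treated and -0.176 in Extracted. The median of the block was -0.565 and -0.410 in the 2 Treated libraries, -0.271 and -0.312 in the 2 Extracted libraries, and between -0.158 and 0.0532 in the other 6. The block was lower in both recovered groups and in both replicates of each.

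The block holds AKT2, which is amplified in this line, beside genes of other functions. The kinase AKT2 (chr19:40230317-40285536) went from 832 and 946 TPM in Control to 356 and 339 TPM in Treated (difference -1.35, SE 0.09, adjusted p = 2.15e-05) and was at 495 and 512 TPM in Extracted. PAF1, a transcription elongation factor, went from 613 and 634 TPM to 361 and 258 TPM (-1.03), SUPT5H from 599 and 672 TPM to 396 and 289 TPM (-0.90) and the kinase DYRK1B from 142 and 154 TPM to 84.9 and 83.8 TPM (-0.80). ACTN4 of the contractile list lies here as well. RPS16, a ribosomal protein gene in the block and outside the list above, went from 11586 and 11880 TPM to 7911 and 7839 TPM (-0.58), against the direction of the ribosomal list. RPS16 lost its call without either Control library (0.0871 and 0.088) or Treated replicate 1 (0.0754). By whole chromosomes, chromosome 21 had the highest median (0.276, with 77.1% of 105 genes above Control) and chromosome 14 the lowest (-0.209, with 23.4% of 355 genes above).

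**Figure D5:**
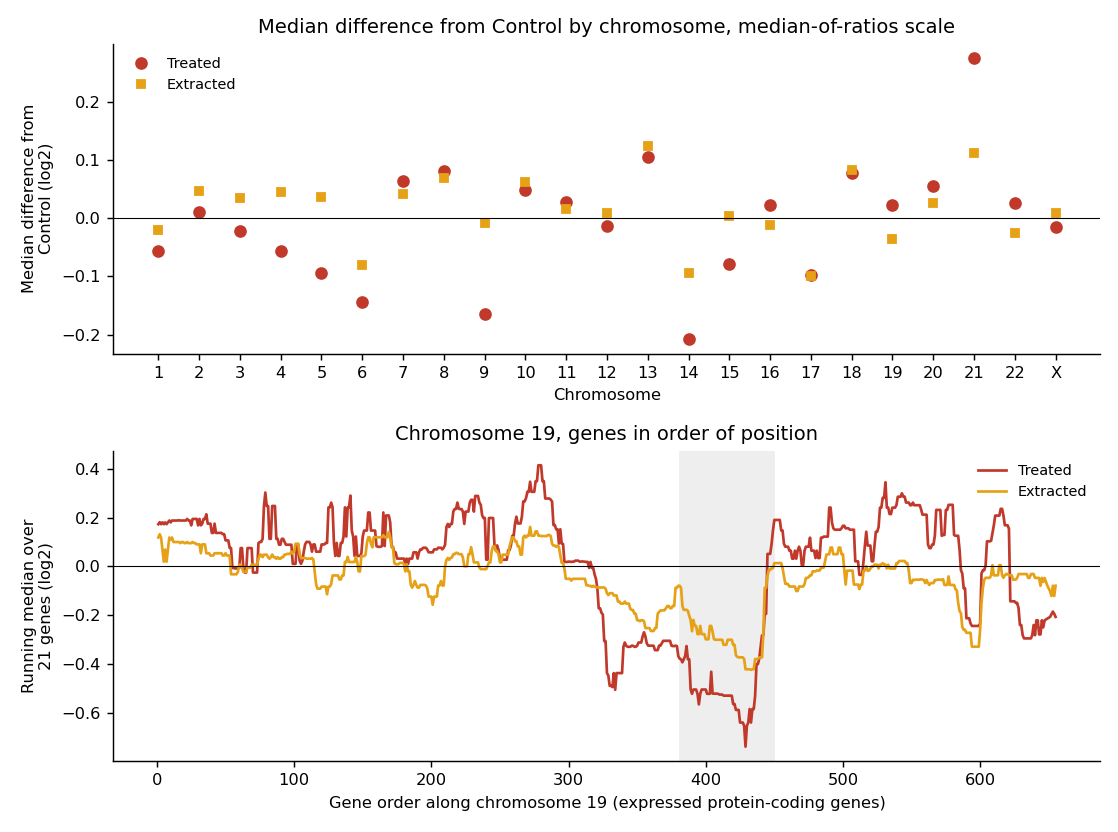
The upper panel gives the median difference from Control for each chromosome on the median-of-ratios scale (log2), in red for Treated and orange for Extracted. The lower panel gives the running median over 21 genes in their order along chromosome 19, with the block from ZNF585A to SNRPA shaded, where both lines lie below 0 over most of its span.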

How the data were processed

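RNA was sequenced from 10 OVCAR-3 libraries, 2 in each of 5 groups. Reads were processed with Trimmomatic, STAR and Cufflinks on GRCh38, per the submitters' processing notes, and no source used here gives the versions, the annotation, the RNA selection or the strand setting. The authors deposited one table of TPM per gene, with no counts, so depth is unknown. Of 58313 entries, 91 sharing an Ensembl identifier were summed, and 57959 genes (99.5%) matched GENCODE 29, which gave positions. Genes with at least 1 TPM in 2 libraries (15167) were fitted as log2(TPM + 1) with limma 3.58.1 (R 4.3.3) with a mean-variance trend, 1 coefficient per group over all 10 libraries, 5 residual degrees of freedom, and Benjamini-Hochberg adjustment at 0.05. The fit was repeated after median-of-ratios rescaling and without each Control and Treated library, where the lone library left in a group is assumed to vary like the other groups. On simulated data with 200 genes changed among 15167, the comparison recovered 96% of 2-fold and 46% of 1.5-fold changes. The changed genes all lay above 5 TPM in Control, the fit was made without rescaling, and no small-RNA load was simulated. Recovery for weaker genes, or for calls on both scales, may therefore be lower.

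Named genes were the 14 largest rises and 14 largest falls called on both scales, with at least 5 TPM in a group mean and no overlap, and up to 3 called members of each list. Clone-like, small-RNA, pseudogene and mitochondrial names were left out of the first set. Other genes are named as well-known members. The 45 gene lists, and the comparison, were chosen with earlier results of these data known. Same-numbered libraries did not deviate together over all genes (correlations -0.022 to 0.087), and the main fit did not pair them. The correlations cannot show whether the numbers stand for a shared culture or day. Alternatives were another pseudocount (0.1), filter (none, 5 TPM), scaling, fold minimum, the 4 libraries alone and a replicate block. Requiring calls on both scales was added after seeing the data. Some members of the lists are counted but not reported here by name.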

Additional observations from a re-analysis of the deposited data

Results flagged for a closer look

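Of the entries for short RNAs, 5 held large TPM in 1 Treated library and were at 0 in the other 9. In Treated replicate 2 the microRNA gene MIR4655 was at 68345 TPM, the U6 copy RNU6-698P at 20287.9 TPM, MIR98 at 14672.2 TPM and the pseudogene AL161670.1 at 1275 TPM. In Treated replicate 1 the noncoding gene AL162413.1 was at 14629 TPM. Their annotated lengths are 74, 107, 119, 137 and 110 bases. Another U6 copy, RNU6-37P, was at 40575.8 TPM in Treated replicate 2 and at 11340.9 TPM in Day1 replicate 1, and at 0 in the other 8. These values stand out because they lie in genes left out of the comparison of named genes and are listed at 0 in both Control libraries. They were not tested, and the rescaled fits give the other genes with their share taken out.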

How the results depend on the processing

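Calls on TPM numbered 3715. They numbered 1645 when the 4 libraries were fitted alone, 562 at a 2-fold minimum, and 1315 to 4183 when 1 library was left out (1723 without Control replicate 1, 1315 without Control replicate 2). Higher genes (953) numbered 1875 with median-of-ratios scaling, 1533 with small-RNA genes removed, 547 in the fit of 4, 268 at 2-fold, and 452 to 1101 without a library. Lower genes (2762) numbered 1754, 1098 and 294 with median-of-ratios scaling, the fit of 4 and the 2-fold minimum, and 863 to 3535 without a library. List members called (378) numbered 226, 111 and 198 to 415 in the fit of 4, at 2-fold and without a library. Treated against Extracted (1836) ranged from 166 to 3143 without a library. The cause was not tested, beyond the fewer samples or stricter threshold that some settings use. The replicate block gave 3713 calls, 945 higher and 2768 lower, 381 list members and 1775 against Extracted. Of 2578 named-gene values under alternatives 2417 kept direction and side of the threshold, 156 lost the call, 5 gained it and 0 reversed. With 2 libraries a group and no counts, precision cannot be set by depth.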

Other observations

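Several further genes with large rises in the cisplatin survivors fall outside the lists, and were chosen after their values were seen. SERPINA1, the protease inhibitor alpha-1 antitrypsin, went from 13.6 and 15.6 TPM in Control to 99.0 and 103.4 TPM in Treated (difference 2.71, limma adjusted p = 2.81e-06), with 23.3 and 27.8 TPM in Extracted. The surface protein gene SUSD2 went from 13.5 and 13.2 TPM to 67.4 and 71.9 TPM (2.30). ADA, adenosine deaminase of purine salvage, went from 9.11 and 7.14 TPM to 38.7 and 39.9 TPM (2.15), beside the pyrimidine deaminase CDA described above. The tetraspanin TSPAN1 rose by 2.08 and NNMT, nicotinamide N-methyltransferase, by 2.02, from 1.14 and 1.00 TPM to 7.66 and 7.15 TPM. CAPS, a calcium-binding protein known from ciliated cells, rose by 2.03. All 6 were called in all 8 repeats without a Control or Treated library.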
